A study of Mus musculus with 27 samples.

Results

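The cilia and axonemal dynein genes were followed here across 4 settings that the labels describe as mutation, beta-cell knockout or induction of the transcription factor Nkx2.2. Members were the genes whose symbol starts with Ift, Bbs or Tekt and a digit, with Dnah or Dnahc and a number, or with Rsph, plus Foxj1, Ccdc67 and Arl13b. The rule used names only. It found 54 of 55536 entries in the embryonic pancreas counts, 49 of 26487 in the islet counts and 51 of 39017 in the progenitor counts. These were 56 distinct symbols once Dnahc was read as Dnah, and 47 of them stood in all 3 count tables. Rsph10b2 in the islet counts and Rsph10b in the embryonic and progenitor counts were taken as separate symbols. The 49 islet members were 12 intraflagellar transport genes, 8 Bardet-Biedl syndrome genes, 14 axonemal dynein heavy chains, 7 radial spoke genes, 5 tektins, Foxj1, Ccdc67 and Arl13b. The embryonic counts name Ccdc67 by its newer symbol, Deup1, which the rule does not take; it had 10 to 31 counts per library there. The embryonic members also include 2 antisense transcripts, Ift88os and Dnah2os, whose reads cannot be told from those of their partner genes if strand was not used.

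The series held 27 mouse samples, from RNA sequencing and from chromatin immunoprecipitation sequencing (ChIP-seq). Whole embryonic pancreata (E15.5) came from 3 wildtype control embryos and 4 Nkx2.2SDmut embryos, which carry a mutated SD domain (a conserved stretch of Nkx2.2). Islets at 8 weeks came from 2 control and 3 betaSDmut samples, in which the same mutation was restricted to beta cells. Islets at 4 weeks came from 2 control and 2 betaKO samples, labelled as a beta-cell knockout. Motor neuron progenitors were derived from mouse embryonic stem cells and sampled on day 4. The 3 pMN samples were the inducible iNkx2.2 line without doxycycline, the 3 iNkx2.2 samples had FLAG-tagged wildtype Nkx2.2 induced for about 16 h by doxycycline at 1 µg/ml, and the 2 iSDmut samples had the FLAG-tagged SD mutant induced in the same way. Binding of Nkx2.2 was mapped in the mouse beta-cell line MIN6. The Cre driver, the number of clones per line, the sex of the animals and any pooling of islets are not given in the sources used here. Islets and pancreata were sequenced whole, so alpha, delta and other cells that carry no beta-specific mutation contributed to every islet value. In such bulk samples, fewer cells of a type and less RNA per cell cannot be told apart.

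Cilia are built and serviced by intraflagellar transport: kinesin and dynein motors carry trains of Ift proteins along the axoneme, and the BBSome, the complex of Bbs proteins, moves membrane cargo on those trains. Nearly every islet endocrine cell carries a single primary cilium, for which Arl13b, a small GTPase of the ciliary membrane, is a standard marker. Motile cilia add axonemal dynein heavy chains, radial spokes and tektins, and their genes are driven by Foxj1, the master regulator of the motile programme. Ccdc67 (Deup1) assembles the deuterosome, the platform on which multiciliated cells multiply their centrioles. RFX factors, which bind the X-box motif, switch on many ciliary genes of both kinds, and Nkx2.2 is a homeodomain factor that maintains beta-cell identity in islets and specifies ventral progenitors in the spinal cord.

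Results in the islets turned on 4 members, and Nkx2.2 sites in MIN6 cells lay near the annotated start of 3 of them. The 30 bases around the site are shown for these 3 and for Ift57, whose promoter held the strongest site among the members. Each is written 5′ to 3′ on the strand of the gene, from the mm10 (GRCm38) genome. Capitals mark matches to the X-box consensus, the paired half-sites bound by RFX factors. The site position is base 16 for Dnahc9 and Rsph3b and base 15 for Rsph3a and Ift57.
Dnahc9, chr11:66168616-66168645, minus strand: gagcttccaccaGTTTCCCAGCAACaacga
Rsph3a, chr17:7945983-7946012, plus strand: ctcggGTTGCTCGGCAACcgatgggggcgc
Rsph3b, chr17:6948322-6948351, minus strand: tcggGTTGCTCGGCAACcgatgggggcgca
Ift57, chr16:49699202-49699231, plus strand: gtctgGTTGCCGTGGTGACcggctgccctg
All 4 matches covered the site position. The match was letter for letter the same in Rsph3a and Rsph3b, and the Ift57 match had a wider spacer between its half-sites. The fourth called member, Ccdc67, had no Nkx2.2 site in either of its 2 RefSeq promoter entries. The one with an X-box match is shown for comparison, with the same capitals and build; the other, chr9:15628257-15628556, held 0 matches.
Ccdc67, chr9:15627797-15628096, minus strand: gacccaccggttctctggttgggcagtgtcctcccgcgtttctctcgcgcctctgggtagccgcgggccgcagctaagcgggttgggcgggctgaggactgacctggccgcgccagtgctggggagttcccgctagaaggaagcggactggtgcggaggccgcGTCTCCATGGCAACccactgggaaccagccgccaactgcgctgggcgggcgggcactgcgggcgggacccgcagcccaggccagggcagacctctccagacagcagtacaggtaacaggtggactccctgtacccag

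Total counts per library were 38447596 to 41840638 in embryonic pancreas, 12398041 to 32385406 in islets and 17757991 to 46840701 in progenitors. Levels below are counts per 1000000 counts (CPM) after TMM normalisation over all libraries of a table, and log2 fold changes come from the edgeR fit of each comparison, with Benjamini-Hochberg adjustment over all genes tested. Nkx2-2 itself was measured at 95.7 ± 9.98 CPM (SD, n = 2) in 8-week controls and 89.9 ± 12.4 (n = 3) in betaSDmut. It was 89.4 ± 18.6 CPM (n = 2) in 4-week controls and 78.7 ± 20.02 (n = 2) in the libraries labelled betaKO, so the transcript count did not separate those groups. Reads from outside a deleted part, or from islet cells without the mutation, could leave the count unchanged. Neither was tested, and the deleted part is not given in the sources used here. Induction raised Nkx2-2 from 9.25 ± 3.36 CPM (n = 3) in pMN to 355 ± 20.1 (n = 3) in iNkx2.2 and 246 ± 2.40 (n = 2) in iSDmut. The 4-week islet libraries are labelled genomic DNA, although their columns hold gene counts like those of the other islets. In embryonic pancreas, control 3 and SDmut 2 stood apart, with 5335 and 6142 CPM summed over 10 skeletal muscle genes against 8.48 to 65.5 CPM in the other 5 libraries.

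In islets, all transport and Bbs genes and 5 of 6 radial spoke genes averaged at least 1 FPKM, while dynein heavy chains and tektins were mostly lower, with Dnahc9 and Tekt2 as the exceptions. On the length-corrected scale of fragments per kilobase of transcript and per 1000000 fragments (FPKM), averaged over all islet libraries, the 12 intraflagellar transport genes had a median level of 15.1 and ranged from 5.08 to 106. Ift20, which links the transport train to the Golgi, led at 106 FPKM, followed by Ift57 at 45.5 and Ift81, a tubulin-binding subunit, at 33.8. The 8 Bbs genes had a median level of 6.93 FPKM, and Arl13b stood at 6.66. Of the 11 dynein heavy chains with an FPKM value, 1 reached 1 FPKM, and their median was 0.0601. That one was Dnahc9, an outer-arm heavy chain, at a mean of 7.16 FPKM. The 6 radial spoke genes had a median of 7.67 FPKM, with Rsph3b at 33.6, Rsph3a at 32.9 and Rsph6a listed at 0. The 5 tektins, filament proteins of the doublet microtubules, had a median of 0.194 FPKM, with Tekt2 highest at 3.59. By counts Tekt2 was low, at group means of 0.499 to 1.16 CPM and 22 to 44 summed counts per group. Its place as an exception therefore holds on the FPKM scale only. Foxj1 stood at 0.277 FPKM and Ccdc67 at 1.70.

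In progenitors transport and Bbs genes again led, and radial spoke genes were low as well. The median level there was 16.5 FPKM for 13 intraflagellar transport genes, 5.01 for 8 Bbs genes, 0.374 for 7 radial spoke genes, 0.0414 for 15 dynein heavy chains and 0.00586 for 5 tektins. None of the 15 dynein heavy chains reached 1 FPKM in progenitors. Ift46, an adaptor for outer dynein arms, led at 152 FPKM, ahead of Ift74 at 25.97 and Ift52 at 25.4. By counts Ift46 had group means of 82.1 to 87.6 CPM and Ift74 of 85.4 to 104 CPM, so that lead holds on the FPKM scale only. Foxj1 stood at 0.643 FPKM, Arl13b at 8.32 and Ccdc67 at 0.0483. The authors normalised the islet and progenitor FPKM values separately, so no level is compared between the 2 tissues.

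**Figure D1:**
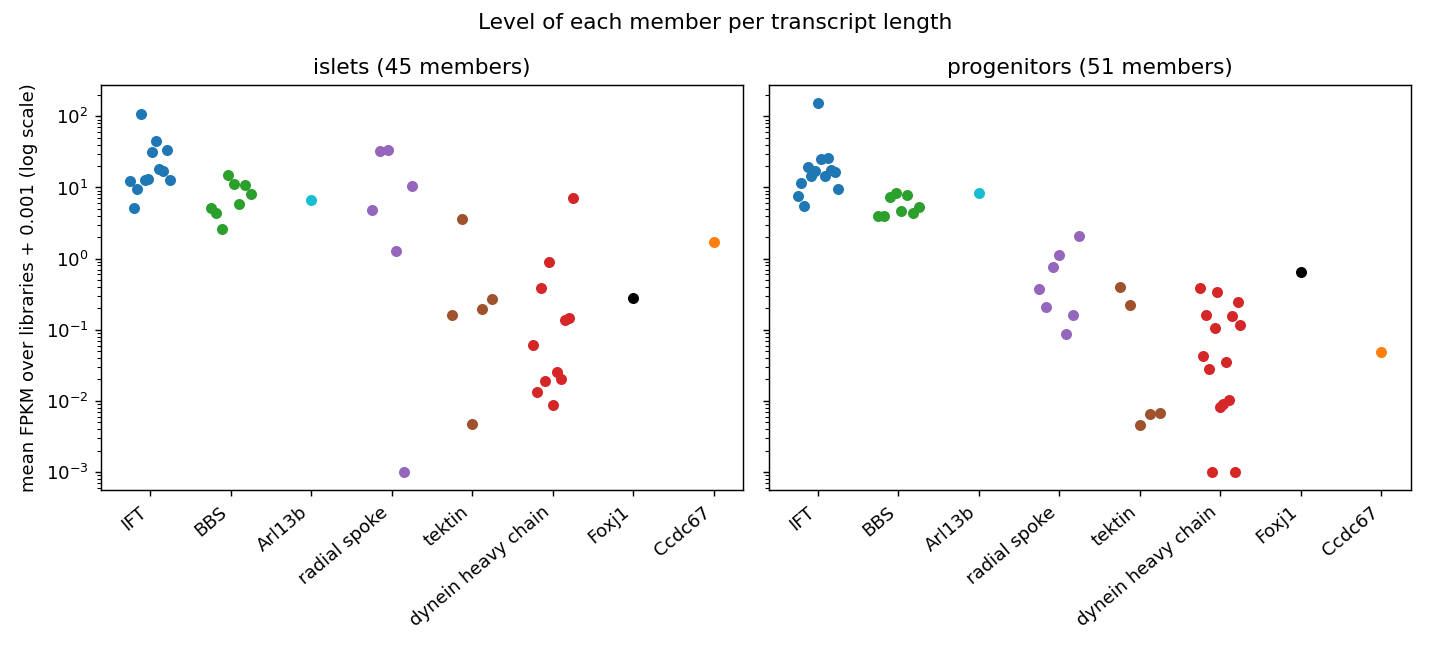
Mean FPKM over libraries of each member, plus 0.001 and on a log axis, in islets (left, 45 members) and progenitors (right, 51 members), with 1 point per gene and the classes along the horizontal axis. All transport and Bbs genes sit above 1 FPKM in both tissues, while 1 of 11 dynein heavy chains in islets and 0 of 15 in progenitors do.

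In islets carrying the beta-cell SD mutation, 4 members were higher than in 8-week controls and none was lower: Dnahc9, Ccdc67, Rsph3a and Rsph3b. The 2 large differences were in genes of motile or multiplied cilia, the outer-arm dynein Dnahc9 (7.30-fold) and the deuterosome gene Ccdc67 (11.4-fold). The radial spoke pair differed by 1.28-fold each. The 12 intraflagellar transport genes and 8 Bbs genes that were tested held no call, and neither did Foxj1 or Arl13b.

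Dnahc9 stood at 25.3 and 20.3 CPM in the 2 controls and at 135, 167 and 198 CPM in the 3 betaSDmut libraries. The groups did not overlap. The log2 fold change was 2.87 (SE 0.211, adjusted p = 0.00406, edgeR). On the FPKM scale the group mean rose from 2.02 to 15.2. The gene spans chr11:65831324-66168581 on the minus strand in the build named above.

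Ccdc67 was close to undetected in the controls, at 0.811 and 0.347 CPM (17 and 8 counts). It reached 5.95, 7.85 and 6.05 CPM (143, 190 and 167 counts) in the betaSDmut libraries. Every mutant library lay above both controls, with a log2 fold change of 3.51 (SE 0.380, adjusted p = 0.00729, edgeR). The gene spans chr9:15559864-15628351 on the minus strand.

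Rsph3a and Rsph3b encode the radial spoke protein that anchors protein kinase A at the spoke. Rsph3a stood at 71.2 and 69.1 CPM in controls and 93.1, 91.9 and 84.4 CPM in betaSDmut, with a log2 fold change of 0.35 (SE 0.0688, adjusted p = 0.0372, edgeR). Rsph3b stood at 64.2 and 60.8 CPM in controls and 82.3, 82.8 and 76.1 CPM in betaSDmut, with a log2 fold change of 0.36 (SE 0.0681, adjusted p = 0.0342). Neither gene's groups overlapped. The pair cannot be counted as 2 independent genes: 74.0% of the 50-base words of the longest Rsph3a transcript also occur in Rsph3b transcripts, and 75.8% of those of Rsph3b occur in Rsph3a. How reads shared between such copies were assigned is not given in the sources used here, so the value of each is uncertain.

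**Figure D2:**
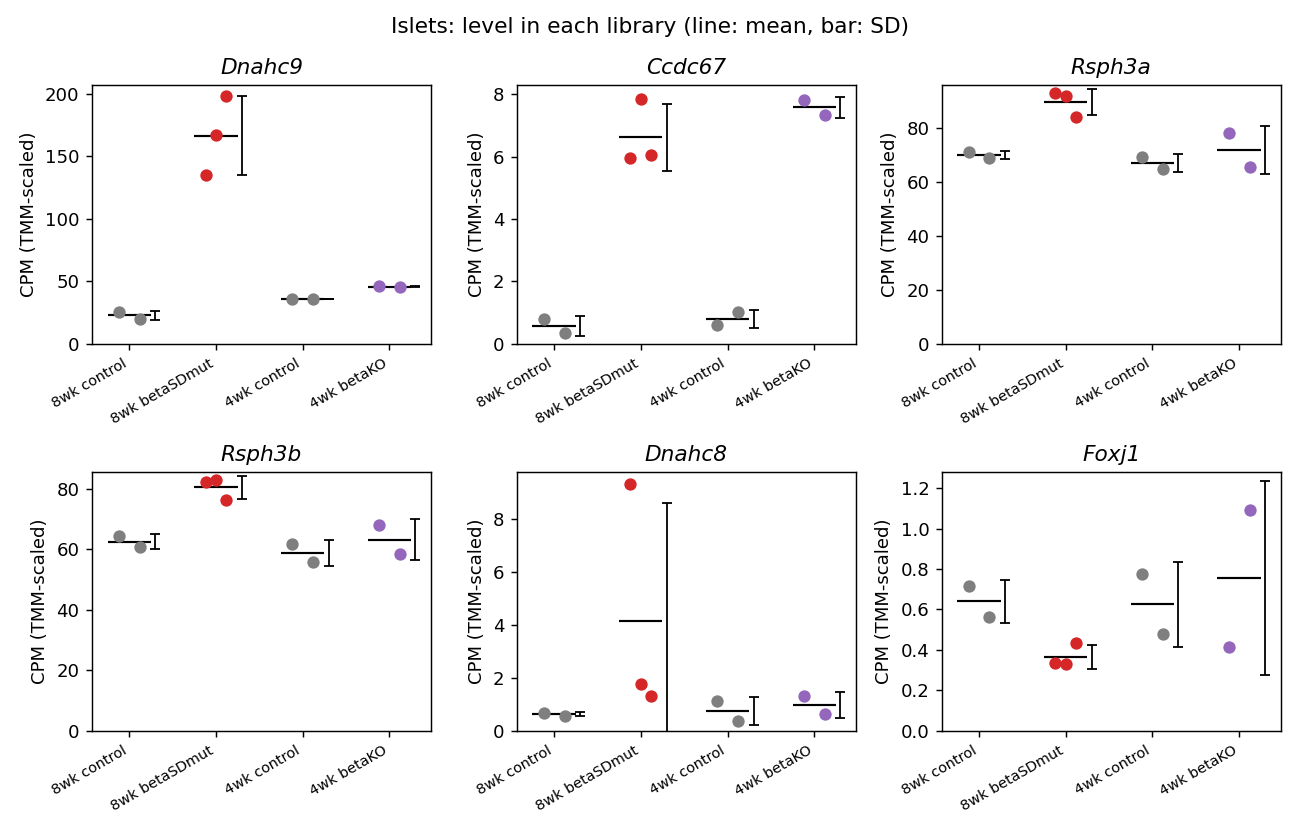
CPM in each of the 9 islet libraries for 6 members, with 1 point per library, a line at each group mean and a bar of 1 SD, on linear axes that start at 0. Dnahc9 lies at 135 to 198 CPM in the 8-week betaSDmut libraries and at 20.3 to 46.2 CPM in all others, while Ccdc67 lies at 5.95 CPM or above in both mutant groups and at 1.02 or below in both control groups.

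These 4 were 10.5% of the 38 members tested, against 7.94% of the 15413 genes tested that passed in either direction and 4.07% that passed as higher. Rsph3a and Rsph3b make up 2 of the 4 and are not independent in these counts, so the share of 10.5% counts near copies separately. At an unadjusted p below 0.05 the members (10 of 38, 26.3%) stood close to all genes (25.7%). The median log2 fold change was 0.018 over the members and 0.006 over all genes, with 22 members above 0 and 16 below. By class, the call was made for 1 of 8 tested dynein heavy chains, 2 of 6 radial spoke genes and Ccdc67, and for 0 of 12 intraflagellar transport genes, 0 of 8 Bbs genes and the 1 tested tektin. The remaining 11 members had too few counts to be tested.

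Among the members that missed the threshold, Ift57, a subunit of the anterograde train, had a log2 fold change of 0.33 (adjusted p = 0.0525). Ift172, which turns trains around at the ciliary tip, had one of −0.54 (adjusted p = 0.0969). The heavy chain Dnahc8 reached 9.28 CPM in betaSDmut 1 but 1.78 and 1.30 CPM in the other 2, against 0.668 and 0.563 in controls, so a single library carried most of its difference (log2 fold change 2.72, adjusted p = 0.183). Foxj1 stood at 0.716 and 0.563 CPM in controls and 0.333, 0.330 and 0.435 CPM in betaSDmut (log2 fold change −0.79, adjusted p = 0.247). The regulator of the motile programme was therefore below 1 CPM in every 8-week library. Arl13b stood at 18.0 and 17.7 CPM in controls and 22.0, 20.2 and 17.7 CPM in betaSDmut (log2 fold change 0.15, SE 0.108, adjusted p = 0.417).

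None of these calls held on leaving out 1 of the 2 controls, which leaves a lone control assumed to vary like the mutant libraries, although the fold changes stayed about as large. Without control 1 the adjusted p was 0.0549 for Dnahc9, 0.0506 for Ccdc67, 0.221 for Rsph3a and 0.19 for Rsph3b, and without control 2 it was 0.0681, 0.0687, 0.286 and 0.282. The log2 fold change without control 1 and without control 2 was 3.03 and 2.72 for Dnahc9 and 4.23 and 3.02 for Ccdc67. It was 0.37 and 0.33 for Rsph3a and 0.39 and 0.32 for Rsph3b. Without betaSDmut 2, the calls of Rsph3a (adjusted p = 0.143) and Rsph3b (0.136) also ended. Without betaSDmut 1 the count of members called rose to 9, joined by Ift57 and Rsph4a as higher and by Ift140, Ift172 and Ift88 as lower, while the number of all genes called rose from 1224 to 2765. DESeq2 called 7 members and 13.2% of all genes, adding Dnahc8, Ift57 and, as lower, Ift172.

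Sums of several cell-type marker lists differed in this comparison. Of 15 markers of multiciliated cells outside the members, 13 were in the islet counts, and their summed level was 49.5 to 57.2 CPM in 8-week controls and 79.9 to 82.5 in betaSDmut. Most of that sum was Fam183b, at 34.98 to 38.7 CPM in controls and 55.5 to 66.1 in betaSDmut. Sntn was at 0 in every library. Further markers are given after their values were seen: Hydin, a central-pair protein, stood at a mean of 0.343 CPM in controls and 0.147 in betaSDmut, and the dynein light chain Dynlrb2 at 0.516 and 1.27 CPM. Tmem212 stood at a mean of 0.0433 CPM in controls and 0.717 in betaSDmut. For the rest of the list, Tppp3 had means of 4.90 and 3.99 CPM in the same order and Cdhr4 0.187 and 0.0517. Spag17 had 0.0239 and 0.0121 CPM and Ccno 0.0217 and 0.0139. Dnaic1 had 5.47 and 8.14 CPM, Dnaic2 4.22 and 5.59, 1110017D15Rik 0.347 and 0.496 and 6820408C15Rik 0.436 and 0.437. Single markers of this list thus went in both directions. Summed beta-cell markers stood at 238125 to 243546 CPM in controls and 199738 to 220414 in betaSDmut, and summed delta-cell markers at 2083 to 3089 against 4953 to 6524 CPM. Summed acinar markers spanned 5748 to 9388 CPM in controls and 809 to 7593 in betaSDmut. Other sums without overlap included mesothelium (43.5 to 65.5 CPM in controls, 2.32 to 12.7 in betaSDmut) and mesenchyme (219 to 282 against 117 to 177). Schwann and neural crest markers (25.9 to 29.1 against 16.3 to 19.0 CPM) were lower as well. The sum of the postmitotic neuron list was higher (272 to 280 against 396 to 409 CPM). That list includes the transcription factors Isl1 and Mnx1, and its single genes are not given here. In islets its sum therefore does not show a change in neurons. The part of cell composition in the differences of Dnahc9, Ccdc67 and the radial spoke pair was not tested.

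Ciliary genes outside the naming rule were followed in 6 lists: Ift and Bbs subunits under other symbols, ciliary motors and small GTPases, the transition zone, dynein arm chains and assembly, the central pair with other axonemal genes, and multiciliation with ciliary transcription. Of the 87 such genes tested at 8 weeks, 4 (4.6%) were higher, among them Ccdc13, Cep290 and Adcy3, and 0 lower, close to the 4.07% of all genes called higher and below the 7.94% called in either direction. At an unadjusted p below 0.05 there were 18 (20.7%), against 25.7% of all genes, and the median log2 fold change of the 87 was 0.088 against 0.006. Ccdc13, a centriolar satellite protein, rose from a mean of 0.249 ± 0.0151 CPM (n = 2) to 34.5 ± 8.09 (n = 3), a log2 fold change of 7.08 (SE 0.366, adjusted p = 0.00122, edgeR). Cep290, which forms the gate at the ciliary base, rose from 31.97 to 48.2 CPM (adjusted p = 0.0148), and Adcy3, the adenylyl cyclase of primary cilia, from 5.65 to 10.5 CPM (adjusted p = 0.0318). Without 8-week control 2 the calls of Ccdc13, Cep290 and Adcy3 ended (adjusted p = 0.053, 0.142 and 0.156), and without control 1 those of Cep290 (0.155) and Adcy3 (0.22) ended. Without betaSDmut 2 those of Cep290 (0.0561) and Adcy3 (0.114) ended.

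At 4 weeks, Ccdc67 was higher in the libraries labelled betaKO and Dnahc9 was not called. Ccdc67 stood at 0.595 and 1.02 CPM (20 and 17 counts) in controls and at 7.81 and 7.34 CPM (132 and 94 counts) in betaKO. The groups did not overlap, and the log2 fold change was 3.27 (SE 0.356, adjusted p = 0.0318, edgeR), or 9.67-fold. Dnahc9 stood at 35.9 and 35.7 CPM in controls and 46.2 and 45.4 CPM in betaKO. These groups did not overlap either, but the difference was small and missed the threshold (log2 fold change 0.36, SE 0.0925, adjusted p = 0.161). Rsph3a had 69.6 and 64.8 CPM in controls and 78.2 and 65.6 in betaKO (adjusted p = 0.748), and Rsph3b had 61.8 and 55.8 against 67.9 and 58.5 (adjusted p = 0.732). Both radial spoke genes overlapped between the groups. Foxj1 stood at 0.773 and 0.478 CPM in controls and 0.414 and 1.09 in betaKO (log2 fold change 0.20, adjusted p = 0.928). Arl13b stood at 16.2 and 18.4 against 17.1 and 17.5 CPM (log2 fold change 0.00027, adjusted p = 0.999).

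Ccdc67 was the 1 member called of 36 tested at 4 weeks (2.78%), against 1.56% of all genes and 0.81% as higher. At an unadjusted p below 0.05 there were 4 members (11.1%), against 15.2% of all genes, and the median log2 fold change was 0.043 over the members and −0.0036 over all genes. All 6 tested dynein heavy chains lay above 0 at 4 weeks (0.35 to 1.11, median 0.48) with 3 at an unadjusted p below 0.05 and none called, whereas 3 of 8 lay above 0 at 8 weeks (median −0.096); this contrast between classes of genes was not tested. The Ccdc67 call ended without control 1 (adjusted p = 0.112), control 2 (0.116) or betaKO 2 (0.062), and its log2 fold change there was 2.90 to 3.66. No gene of the 6 ciliary lists passed among 85 tested, while 9 had an unadjusted p below 0.05. Ccdc13 had a log2 fold change of 2.22 (adjusted p = 0.208) and Cep290 one of −0.12 (adjusted p = 0.662). Summed multiciliated markers stood at 61.8 to 93.1 CPM in controls and 86.5 to 87.8 in betaKO, with Ccno and Sntn at 0 in betaKO. Summed markers of several pancreatic cell types did not overlap between the groups, the following 5 among them. Summed beta markers were 211753 to 216351 CPM in controls against 167536 to 179791 in betaKO, and summed alpha markers 26557 to 30904 against 53150.0 to 65004 CPM. Summed delta markers were 1893 to 3440 against 5143 to 6436 CPM, summed PP markers 2692 to 2914 against 6670 to 8275, and summed acinar markers 4327 to 7973 against 10165 to 30083 CPM. Their part in the Ccdc67 difference was not tested.

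The 2 islet effects were then compared with each other in 1 fit, as the fold change of betaSDmut over its 8-week controls minus that of betaKO over its 4-week controls. Dnahc9 differed, by 2.51 on the log2 scale (SE 0.240, adjusted p = 0.00738, edgeR), or 5.71-fold. Ccdc67 did not pass: the difference was 0.24 with an SE of 0.530 (adjusted p = 0.893), and with an error of that size the test does not show that the effects were equal. Age and genotype change together between the 2 experiments, so they cannot be told apart in this difference. Dnahc9 was the 1 member called of 40 tested (2.5%), against 1.21% of all genes, and at an unadjusted p below 0.05 the shares were 2.5% of the members and 13.7% of all genes. Foxj1 had a difference of −1.0 (adjusted p = 0.613) and Arl13b one of 0.16 (adjusted p = 0.739). The Dnahc9 call ended without 8-week control 2 (2.37, adjusted p = 0.0558), where no gene at all passed. Leaving out 4-week control 1 brought in a second member, Ift81.

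Among 89 ciliary list genes tested for this difference, 2 (2.25%, against 1.21% of all genes) were higher: Ccdc13 by 4.93 (SE 0.793, adjusted p = 0.0336) and Cep290 by 0.71 (SE 0.124, adjusted p = 0.0426). The Ccdc13 call ended without 8-week control 1 (adjusted p = 0.111), control 2 (0.151) or betaSDmut 2 (0.0531), and without 4-week control 1 (0.367), control 2 (0.0661) or betaKO 2 (0.0628). The Cep290 call ended on leaving out any of those 6 libraries or betaKO 1, with an adjusted p of 0.0618 to 0.184.

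**Figure D3:**
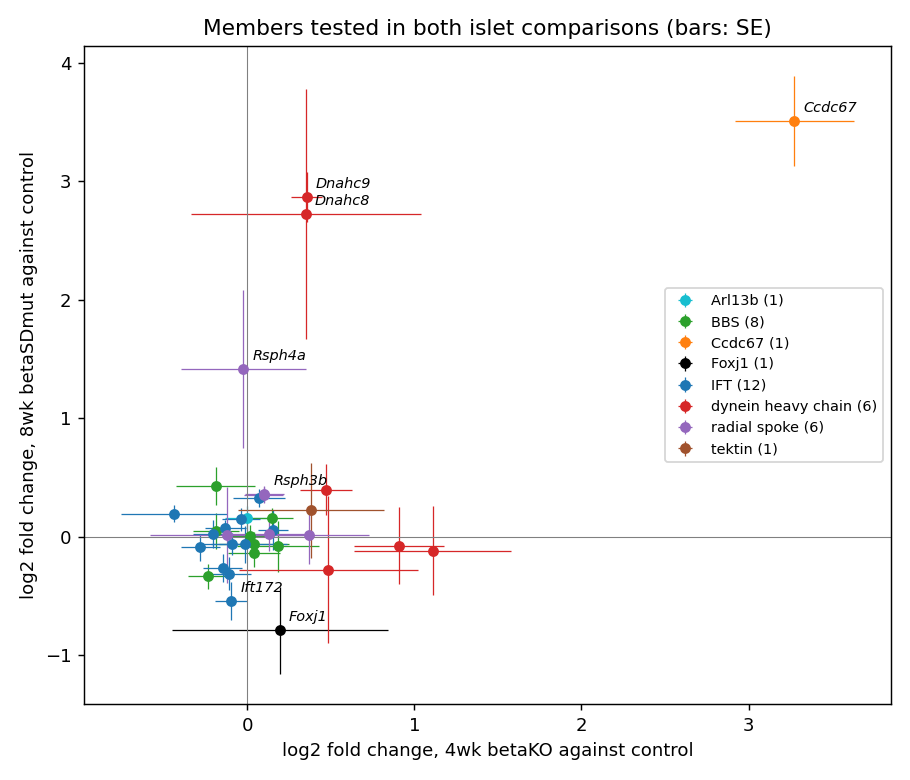
Log2 fold change of each member in 8-week betaSDmut islets (vertical) against that in 4-week betaKO islets (horizontal), for the 36 members tested in both, coloured by class, with bars of 1 SE. Ccdc67 lies far out on both axes (3.51 and 3.27), while Dnahc9 lies high on the vertical axis (2.87) and at 0.36 on the horizontal one.

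In the embryonic pancreas, no cilia gene differed between SDmut and control at the threshold. Of 45 members tested, 0 were called by edgeR and 0 by DESeq2, against 0.00534% of all genes by edgeR (1 of 18723) and 0.135% by DESeq2. No member reached an unadjusted p below 0.05, against 2.54% of all genes. There were 14 members above 0 and 31 below, and the median log2 fold change was −0.075 over the members and 0.011 over all genes. The count of members called stayed at 0 without control 3, without SDmut 2 and in each other leave-out.

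The smallest p belonged to Tekt2, a filament protein of doublet microtubules. It stood at 7.44, 7.03 and 7.14 CPM in controls and at 5.03, 6.84, 5.12 and 5.22 CPM in SDmut. The groups did not overlap, but the difference was −0.37 on the log2 scale with an unadjusted p of 0.0718 and an adjusted p of 1. Foxj1 stood at 6.52, 4.71 and 4.98 CPM in controls and 3.54, 3.98, 4.97 and 4.62 in SDmut (log2 fold change −0.34, SE 0.214, adjusted p = 1). Arl13b stood at 18.2, 17.1 and 22.8 CPM in controls and 18.7, 20.1, 18.3 and 15.4 in SDmut (log2 fold change −0.095, adjusted p = 1). Both genes overlapped between the groups. Ccdc67, under its newer symbol Deup1, stood at 0.291, 0.592 and 0.259 CPM in controls and 0.800, 0.379, 0.539 and 0.607 in SDmut. Its groups overlapped too, and no test of it is given here.

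The 3 members with the most counts in the embryonic pancreas were transport subunits, and all 3 overlapped between the groups. Ift20 stood at 55.4, 41.0 and 45.1 CPM in controls and 54.1, 39.4, 65.3 and 50.5 in SDmut. Ift172 stood at 46.3, 54.2 and 51.1 against 46.2, 51.2, 40.2 and 58.2 CPM. Ift46 stood at 43.1, 39.5 and 41.9 against 42.8, 42.8, 40.4 and 35.1 CPM. Of 91 ciliary list genes tested, 0 passed by edgeR and 1 had an unadjusted p below 0.05. Summed multiciliated markers spanned 24.2 to 54.3 CPM in controls and 22.6 to 55.9 CPM in SDmut.

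In motor neuron progenitors, inducing wildtype Nkx2.2 left all 42 tested members short of the threshold when samples were treated as unpaired, and 5 passed once same-numbered samples were treated as pairs. In the paired fit Foxj1 and Dnah1, an inner-arm heavy chain, were higher in iNkx2.2, and Ift81, Ift88 and Bbs12 were lower. That fit also grouped the iSDmut libraries by number, although their numbers were less well supported as a pairing. Without the pairing, 0 of 42 members were called by edgeR against 9.49% of all genes; 7 (16.7%) had an unadjusted p below 0.05, against 25.3% of all genes. The paired count, 5 of 42, stood beside 29.6% of all genes.

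Foxj1 stood at 2.00, 1.34 and 1.86 CPM in pMN and at 3.31, 3.13 and 3.06 CPM in iNkx2.2. The groups did not overlap, and the log2 fold change was 0.86 with an adjusted p of 0.0638 unpaired, 0.0244 paired and 0.038 by DESeq2, which called 14.5% of all genes. Dnah1 stood at 7.12, 5.88 and 8.04 CPM in pMN and at 13.5, 10.6 and 11.1 CPM in iNkx2.2. Its groups did not overlap either, and its log2 fold change was 0.74 with an adjusted p of 0.0638 unpaired and 0.0289 paired. It also passed by DESeq2 (adjusted p = 0.0161) and, unpaired, without iSDmut 1 (0.0382) or iSDmut 2 (0.039). Bbs12, a chaperonin-like protein that assembles the BBSome, stood at 24.4, 27.5 and 16.7 CPM in pMN and 17.7, 17.7 and 14.4 CPM in iNkx2.2 (log2 fold change −0.46, adjusted p = 0.151 unpaired). Those groups overlapped unpaired, and the adjusted p was 0.0122 paired and 0.0342 unpaired without pMN 3. Ift81 and Ift88, both of the core transport train, had paired log2 fold changes of −0.23 (adjusted p = 0.0255) and −0.30 (adjusted p = 0.0328).

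The iSDmut libraries stood near the pMN level for both genes that were higher in iNkx2.2. Foxj1 was 1.74 and 1.95 CPM in iSDmut (log2 fold change against pMN 0.087, SE 0.292, adjusted p = 0.901). Dnah1 was 5.71 and 8.98 CPM (log2 fold change against pMN 0.068, SE 0.246, adjusted p = 0.908). Set directly against iNkx2.2, iSDmut gave −0.78 for Foxj1 (SE 0.287, adjusted p = 0.306) and −0.67 for Dnah1 (SE 0.246, adjusted p = 0.301), so neither difference between the 2 inducible lines passed the test. The comparisons with pMN share their control libraries. The pMN samples were the uninduced iNkx2.2 line, and the series held no uninduced samples of the iSDmut line. Line, doxycycline and transgene thus change together in iSDmut against pMN and cannot be told apart. Nkx2-2 also stood lower in iSDmut (246 CPM) than in iNkx2.2 (355 CPM), and iSDmut 2 alone was labelled lane 3.

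**Figure D4:**
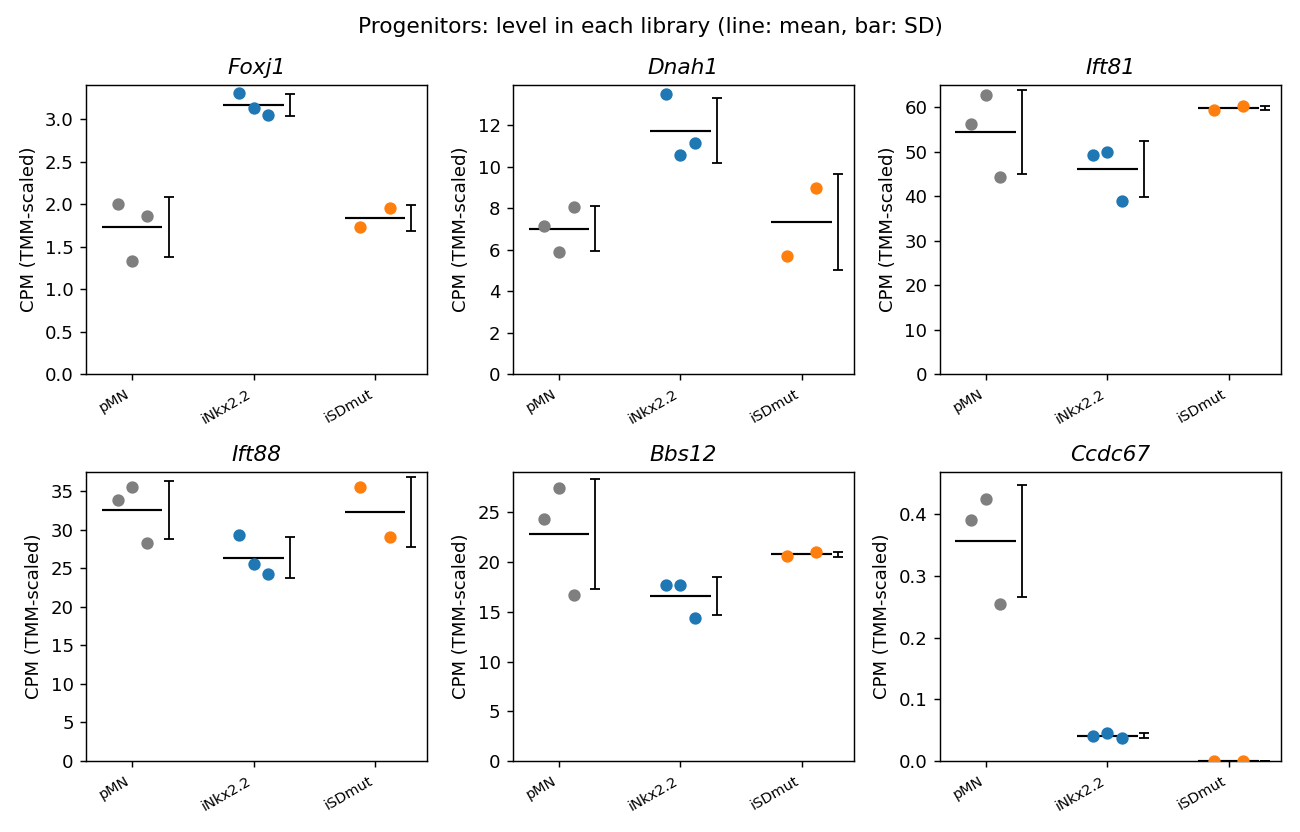
CPM in each of the 8 progenitor libraries for 6 members, with 1 point per library, a line at each group mean and a bar of 1 SD, on linear axes that start at 0. All 3 iNkx2.2 libraries lie above all pMN and iSDmut libraries for Foxj1 (3.06 to 3.31 against 1.34 to 2.00 CPM) and Dnah1 (10.6 to 13.5 against 5.71 to 8.98 CPM).

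Across the members, iSDmut against pMN gave 0 calls by edgeR and 0 by DESeq2 (3.54% and 9% of all genes), with 3 of 42 (7.14%, against 20.2% of all genes) at an unadjusted p below 0.05. iSDmut against iNkx2.2 gave 0 calls by both tools (0.281% and 3.14% of all genes), with 7 of 42 (16.7%, against 12.5% of all genes) at an unadjusted p below 0.05. In that comparison 30 members lay above 0 and 12 below. Of the 10 tested dynein heavy chains, 9 lay above 0 in iNkx2.2 against pMN (median 0.51), 5 in iSDmut against pMN (−0.0010) and 3 in iSDmut against iNkx2.2 (−0.64), with none called unpaired. Over all genes the medians were −0.0086, −0.014 and 0.014 in the same order. The chains were measured in the same libraries, and the first and last comparison share the iNkx2.2 libraries, so these counts are not independent. Several chains had few counts, and this contrast was not tested. Arl13b, the primary cilium marker, stood at 33.1, 35.2 and 29.3 CPM in pMN, 35.9, 34.7 and 31.2 in iNkx2.2 and 35.8 and 34.8 in iSDmut. Its groups overlapped, and the adjusted p was 0.77, 0.636 and 0.876 in the 3 comparisons. Ccdc67 was too low to be tested, with 7, 7 and 6 counts in pMN, 2, 1 and 1 in iNkx2.2 and 0 and 0 in iSDmut. The pMN mean was 4.92-fold above a limit of 3 counts over the iSDmut group. That limit was not TMM-scaled, and error on the pMN counts was left out, so the value is not a lower bound.

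Of 92 ciliary list genes tested in iNkx2.2 against pMN, 2 were higher and 2 lower, together 4.35% against the 9.49% of all genes called. At an unadjusted p below 0.05 there were 15 (16.3%), against 25.3% of all genes. Rfx2, one of the RFX factors of ciliary genes, rose from a mean of 11.7 to 19.5 CPM (log2 fold change 0.74, adjusted p = 0.0146, edgeR). Dnaic1, an outer-arm dynein intermediate chain, rose from 0.401 to 1.44 CPM (log2 fold change 1.80, adjusted p = 0.0305). Dnaaf2, a dynein assembly factor, fell by 0.43 on the log2 scale (adjusted p = 0.0324), and Trim32, a ubiquitin ligase linked to Bardet-Biedl syndrome, fell by 0.42 (adjusted p = 0.0367). The Rfx2 call ended without pMN 1 (adjusted p = 0.0677). Those of Dnaic1 and Dnaaf2 ended on leaving out any 1 of the 6 pMN and iNkx2.2 libraries (adjusted p = 0.0503 to 0.0965 and 0.0523 to 0.139), and that of Trim32 on leaving out pMN 1 or 2 or iNkx2.2 1 or 2 (0.0849 to 0.146). Both iSDmut comparisons gave 0 calls among these 92 genes by edgeR, with 15 and 4 at an unadjusted p below 0.05. The libraries of lane 2 alone gave no member call in iNkx2.2 against pMN and ended the calls of the 4 list genes (adjusted p = 0.0501 to 0.0895).

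Markers of neighbouring cell types moved in the progenitors too. Summed floor plate markers stood at 375 to 490 CPM in pMN, 560 to 777 in iNkx2.2 and 326 to 547 in iSDmut. Summed p3 progenitor markers, a list of 3 genes, stood at 70.2 to 97.8 CPM in pMN, 5.64 to 11.1 in iNkx2.2 and 12.3 to 14.4 in iSDmut. The values of the single genes are not given here, and a single gene could carry such a sum. It therefore does not show whether p3 identity was lost or gained, which was not tested. Summed motor neuron progenitor markers stood at 663 to 819 CPM in pMN, 244 to 393 in iNkx2.2 and 273 to 436 in iSDmut. Summed markers of postmitotic neurons stood at 387 to 779, 769 to 1102 and 862 to 994 CPM in the same order. Multiciliated markers outside the members stood at 19.2 to 28.6, 24.5 to 37.3 and 25.8 to 30.9 CPM, so these groups overlapped. The part of these populations in the Foxj1 and Dnah1 values was not tested.

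Nkx2.2 ChIP-seq in MIN6 cells placed sites at the start of several members. Of the 49 islet members, 42 had a promoter entry in RefSeq (GRCm38), and 6 of these (14.3%) had a site within 1000 bases of the start, against 459 of 18234 (2.52%) for all islet genes with an entry. Restricted to genes tested at 8 weeks, the shares were 6 of 31 (19.4%) and 436 of 11660 (3.74%). The 6 were Ift172 (11 bases away), Rsph3b (20), Ift57 (78), Bbs2 (79), Dnahc9 (79) and Rsph3a (383). They thus held 3 of the 4 members called in betaSDmut islets and 3 that were not called. Rsph3a and Rsph3b have nearly the same sequence at their sites, so they are not independent in these shares. The nearest site to Ccdc67 lay 42048 bases from its start. For scale, 5.62% of all genes called at 8 weeks and 7.07% of those called as higher had a site within this distance.

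The sites at Ift57 and Bbs2 were among the strongest in the genome-wide set of 6473, and those of the called members were moderate to strong. The authors deposited site values as log2 CPM for 2 ChIP replicates. Ift57 had 9.20 and 9.02, above 97.7% of all sites, and Bbs2, a core BBSome subunit, had 9.10 and 8.98, above 97.4%. Dnahc9 had 7.65 and 7.63 (above 82.6% of sites), Rsph3a 7.53 and 7.64 (81.3%), Rsph3b 7.34 and 7.57 (77.6%) and Ift172 7.20 and 6.89 (62.0%). Dnahc9 held 4 sites within the gene, but the authors' deposited join of sites to genes does not list it. The sequence at the Rsph3a and Rsph3b sites is nearly the same, and to which copy their ChIP reads belong was not tested. Binding in a cell line and expression in mutant islets were measured in different cells, and no binding was measured in mutant cells.

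**Figure D5:**
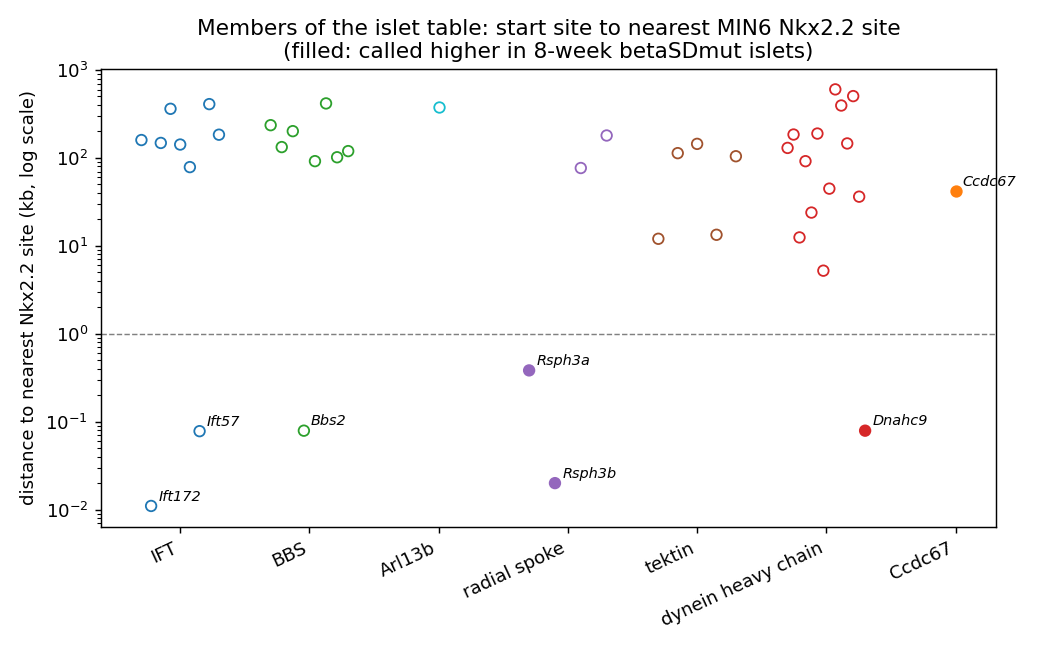
Distance in kilobases (log axis) from the start of each of the 42 members with a promoter entry to the nearest Nkx2.2 site in MIN6 cells, by class, with filled points for members called in 8-week betaSDmut islets and a dashed line at 1 kb. Of the 4 called members, Rsph3b, Dnahc9 and Rsph3a lie at 20, 79 and 383 bases, and Ccdc67 at 42048 bases.

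Motifs were counted on both strands. The NK2 core, TNAAGTG, which Nkx2 homeodomains bind, occurred in 3 of 42 member promoters of 300 bases (7.14%), against 13.1% of all promoters. The X-box half-site GTTGCC occurred in 18 of 42 (42.9%) against 14.1%, and the full X-box consensus in 28 of 42 (66.7%) against 37.9%. Some full matches contain the half-site, so the 2 counts overlap. In 300-base windows around the 6 member sites, the X-box consensus occurred in 6 of 6, against 55.5% of the 564 sites within 1000 bases of any promoter and 52.0% of all sites. It covered the site position itself in 5 of 6 (83.3%), as in the 30-base stretches printed above, against 28.7% of promoter sites and 26.3% of all sites. In Ift172 it lay 31 bases from the site. Rsph3a and Rsph3b, whose site sequences are nearly the same, make up 2 of the 6 in these counts and are not independent. The NK2 core occurred in 0 of the 6 windows, against 11.2% of promoter sites and 20.1% of all sites. The X-box was searched after the sequences had been seen. A match describes letters in these windows and does not show which factor was bound.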

How the data were processed

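RNA-seq read counts per gene and Nkx2.2 ChIP-seq sites were analysed as deposited by the authors. Counts are unnormalised. The authors also deposited FPKM values for islets and progenitors, and ChIP site values as log2 CPM. The FPKM values were used here for levels between genes and, for Dnahc9 only, for group means from the same libraries as the counts. The submitters' processing notes name STAR, Cufflinks, DESeq2, edgeR 3.20.9, limma 3.34.9, bedtools 2.17.0 and mm10. The counting rule and use of strand are not given in the sources used here. The authors' deposited table that joins bound sites to genes is labelled as significant genes of betaSDmut against betaKO. It covers 2594 genes and lists 7 members, Bbs2, Bbs9, Ift172, Ift57, Ift81, Rsph3a and Rsph3b. Dnahc9 and Ccdc67 are not among them.

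Each comparison was fitted on all genes passing filterByExpr (minimum count 10) with edgeR 4.0.16 in R 4.3.3 (TMM, robust quasi-likelihood F-test, Benjamini-Hochberg adjusted p below 0.05), with DESeq2 1.42.0 as an alternative, and tested first on simulated counts. The islet comparisons were fitted on their own libraries, and their difference on all 9. The progenitor fit held all 8 libraries. Each SE was derived from the fold change and its F statistic. Of the members, 45, 38, 36, 40 and 42 were tested in embryonic, 8-week, 4-week, difference and progenitor fits. Levels are mean ± SD. Replicates come from labels; where nothing says they were separate animals or cultures, p-values measure only the spread between these samples.

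Genes named were Foxj1, Ccdc67, Arl13b, every member past the threshold in a comparison, the 3 members with the highest FPKM or (embryo) count in each system, and list genes past the threshold; other genes were named after their values were seen. The values of 1 list gene past the threshold are not reported here. Members and lists were chosen with earlier results of these data known. Replicate numbers in the titles paired pMN with iNkx2.2 (correlations of 0.561, 0.548 and 0.584). They did not pair the islets. The block of the progenitor fit also took in iSDmut. Its same-numbered correlations were 0.376 and 0.054 with pMN and 0.334 and 0.108 with iNkx2.2.

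Promoters (RefSeq, GRCm38) ran from 250 bases before to 50 after each start. Alternatives were DESeq2, RLE scaling, no or a stricter filter, a replicate block, other sample sets and leaving out each library.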

Additional observations from a re-analysis of the deposited data

Results flagged for a closer look

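In the 4 SDmut pancreata, 3 of 45 members had 1 library far from the other 3; chance flags about 1 in 20 such groups. Dnah17 stood at 0.515 CPM in SDmut 3 and at 0.211 to 0.237 CPM in the others. Ift57 stood at 24.6 CPM in SDmut 3, against 20.6 to 20.7. Tekt2 stood at 6.84 CPM in SDmut 2, one of the libraries with skeletal muscle transcripts, against 5.03 to 5.22.

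The effect of betaSDmut at 8 weeks differed from that of betaKO at 4 weeks, by a test of the difference itself, for Dnahc9 (by 2.51 on the log2 scale), Ccdc13 (by 4.93) and Cep290 (by 0.71). Age and genotype cannot be told apart in these differences.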

How the results depend on the processing

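For betaSDmut at 8 weeks, 4 members were called; DESeq2 called 7, the replicate block 2, and leaving out 1 library gave 0 to 9. At 4 weeks 1 was called, and leaving out 1 library gave 0 to 1. For the difference of islet effects 1 was called, with 0 to 2 on leaving out 1 library. For iNkx2.2 against pMN 0 were called unpaired; DESeq2 and the fit without a filter on low counts each called 2, the fit of those 2 groups alone 1, the replicate block 5, and leaving out 1 library gave 0 to 1. For iSDmut against pMN, the fit without a filter called 1 (Ccdc67, lower) and every other setting 0. Every setting gave 0 for iSDmut against iNkx2.2 and for embryonic pancreas. The cause of these changes was not tested.

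Under the block, which numbered islet samples do not support as a pairing, Rsph3a (adjusted p = 0.0608), Rsph3b (0.0639) and Adcy3 (0.0549) missed the threshold. The block changed no member count at 4 weeks, in embryonic pancreas (number in the title) or in the iSDmut comparisons. No block could be fitted to the difference of islet effects.

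Counts of all genes called ranged over the settings from 0 to 25 in embryonic pancreas (1 as reported), 37 to 2765 at 8 weeks (1224), 4 to 770 at 4 weeks (233), 0 to 653 for the difference (194), 412 to 4629 for iNkx2.2 against pMN (1486), 171 to 2626 for iSDmut against pMN (554) and 1 to 528 for iSDmut against iNkx2.2 (44).

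Values that changed sign belonged to members without a call in that comparison. Each range is over leaving out 1 library. In embryonic pancreas Arl13b ranged from −0.18 to 0.042 (without control 3). At 4 weeks Foxj1 ranged from −0.62 (without betaKO 2) to 0.77, with −0.058 without control 2. There Arl13b ranged from −0.087 (without control 1) to 0.092, with −0.014 without betaKO 2 and −0.0086 without a filter. Without betaKO 1 or 2, Rsph3a gave −0.033 and 0.22, and Rsph3b −0.0082 and 0.21. The Ccdc67 difference of effects ranged from −0.25 (without 8-week control 2) to 0.97, with −0.14 without 4-week control 2. For iSDmut against pMN, Foxj1 ranged from −0.064 (without pMN 2) to 0.20, with −0.0043 without iSDmut 2. Dnah1 ranged from −0.30 (without iSDmut 2) to 0.35, with −0.042 without pMN 2. For iSDmut against iNkx2.2, Arl13b ranged from −0.0094 (without iNkx2.2 3) to 0.093 and was −0.0096 under the block.

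Depth limits the dynein heavy chains, tektins and Ccdc67, most of which had few counts.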
